A study of Mus musculus with 36 samples.

Results

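The genes described here encode factors that license replication origins and fire them. They are Cdc6, Cdt1, Gmnn, Cdc7, Dbf4, Cdc45, Gins1, Gins2, Gins3 and Gins4, 10 of the 22350 protein-coding genes placed on the maps. The set was chosen by gene name and function, not by a measured value, though with earlier results of these data known. Each gene was placed by its annotated start on the mm9 mouse genome, and its values are the replication timing (RT) state of the domain that covers the start, the length of that domain and the distance from the start to the nearest domain edge.

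The series measured RT in mouse B cells by Repli-seq, in which newly made DNA is labelled with BrdU, cells are sorted from early and late S phase, and the labelled DNA of each fraction is sequenced. It holds 36 libraries in 7 groups, and the 3 domain maps used here give every covered bin 1 of 3 states, E for early, M for middle and L for late RT. The first map is from CH12 cells, a mouse B lymphoma line, carrying the lentiviral control hairpin shLacZ, which targets a bacterial gene. The second is from activated splenic B cells of wild-type (WT, Rif1+/+) mice, called primary B cells below. The labels give stimulation with IL4, CD40 and TGF beta for CH12 and repeat the CH12 culture text for the primary B libraries, and they give no age for the mice. Each of these 2 groups had 4 libraries, 2 of each S phase fraction, which were merged before states were called. The study's methods take CH12 replicates from separately thawed vials, but for Repli-seq they also call the sorted samples of each fraction technical replicates, so the kind of replicate is not settled. The third map is labelled WT MEF (mouse embryonic fibroblasts), belongs to none of the 36 libraries, and serves as a reference from another cell type. CH12 is an established tumour line and the primary B cells are a population grown in culture, so tissue of origin, transformation, hairpin and culture cannot be told apart between these maps. The Rif1-/-, heterozygous and shMcm6 groups of the series were not analysed here.

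There is 1 map for each condition, so no difference between maps has a replicate check, no test was run and no error can be given. The maps hold states and no RT values, read counts or expression, so depth is unknown and the cell types were not checked against marker genes. The states did order as their names say: the CH12 map had 18.9 protein-coding starts per Mb of E, 8.41 per Mb of M and 3.76 per Mb of L, the primary B map 17.6, 7.77 and 2.88, and the MEF map 16.1, 6.48 and 3.29. E and L domains never touched each other in any map. The maps differed in how much of the genome each state took. E held 22.7% of bins in CH12, 28.6% in primary B cells and 30.7% in MEF, and L held 49.8%, 39.0% and 30.6%. An earlier state in 1 map than in another is thus a difference in state call and need not mean earlier replication. How far these shares set such differences was not tested.

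An origin is licensed in G1 when the origin recognition complex, CDC6 and CDT1 load the MCM helicase onto DNA, and geminin (Gmnn) keeps CDT1 from doing so again after S phase has begun. The loaded helicase stays inactive until the kinase CDC7, bound to its activating subunit DBF4, phosphorylates MCM and allows CDC45 and the 4-subunit GINS complex to join, which forms the active CMG helicase. Several of these factors are known to limit how many origins can fire at a time, and the order in which origins fire sets the RT of the DNA around them.

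None of the 10 genes started in an L domain in any map. In CH12 cells 6 of 10 started in E domains and 4 in M, against 50.6% of all protein-coding genes in E and 22.1% in L. In primary B cells 7 started in E and 3 in M (all genes, 58.0% in E and 12.9% in L), and in MEF 8 started in E and 2 in M (all genes, 58.6% in E and 11.9% in L). The shares of members in E were above the background in every map, but with 10 genes each member is 10 percentage points, and the excess in CH12 and in primary B cells amounts to about 1 gene.

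The state was the same in CH12 and primary B cells for 9 of 10 members, where 78.5% of all genes kept their state. Cdc7 was the exception, with an M start in the CH12 map and an E start in the primary B map, and 18.8% of all genes likewise had the earlier state in the primary B map. Across all 3 maps, 8 members had a constant state, against 62.8% of all genes. Cdc6, Cdt1, Gmnn, Cdc45, Gins2 and Gins3 were E throughout, a pattern of 43.9% of all genes. Dbf4 and Gins1 were M throughout, as were 10.8% of all genes. Of the other 2, Cdc7 had the order M, E, E in CH12, primary B cells and MEF, seen for 5.46% of genes, and Gins4 had the order M, M, E, seen for 5.71%. Each member lay whole, from start to end, in the domain that covered its start.

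**Figure D1:**
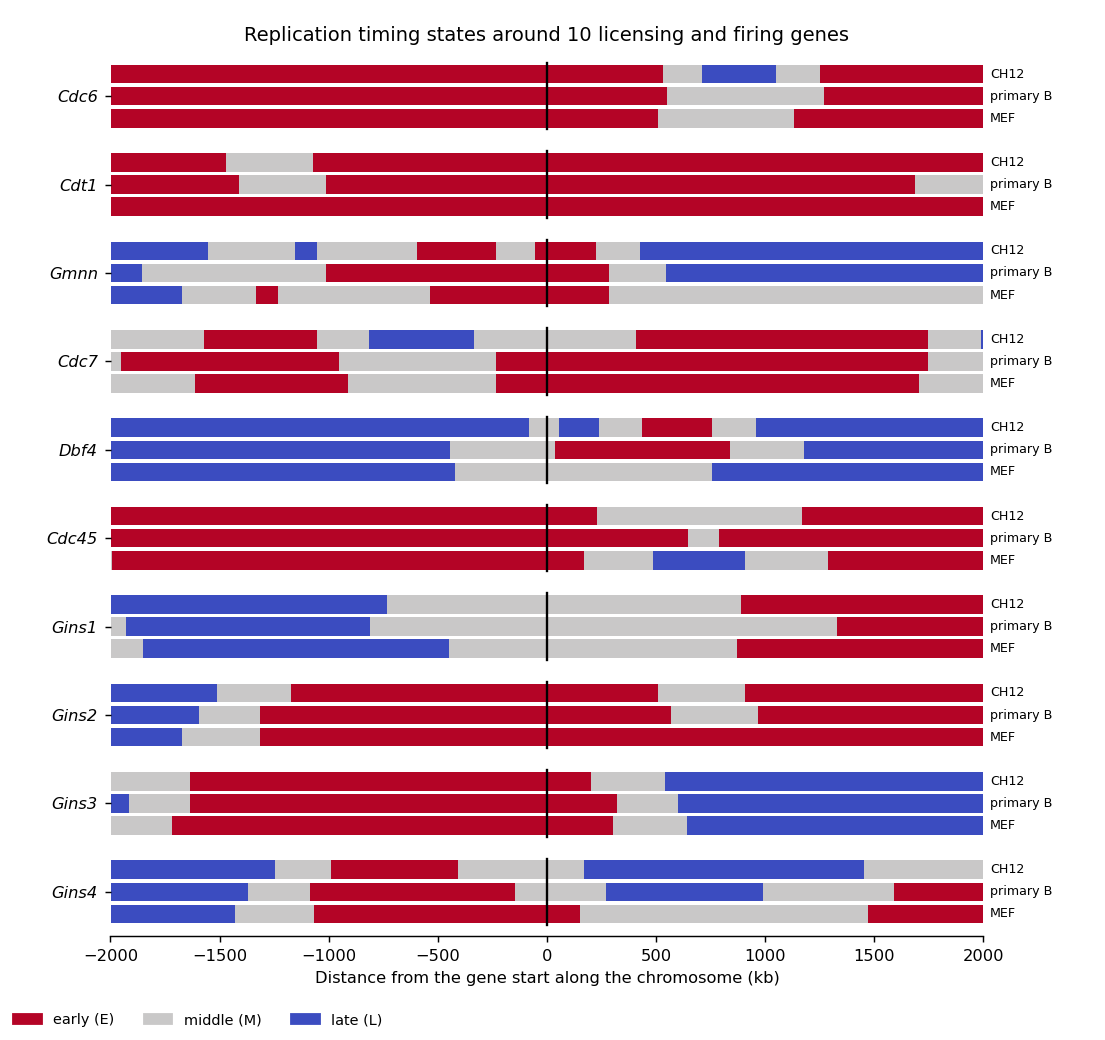
RT states (E red, M grey, L blue) within 2000 kb on either side of each gene start (black line, distance in kb along the chromosome) in the CH12, primary B and MEF maps. Cdc6, Cdt1 and Gins2 lie well inside E domains in all 3 maps, and Gins1 lies inside an M domain in all 3. Cdc7 is M in CH12 only, and Gins4 is E in MEF only. Dbf4 is M in all 3 maps, with L domains on both sides in CH12 and in MEF.

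Among the licensing factors, Cdc6, the ATPase that works with the origin recognition complex to load MCM, starts at chr11:98769115 and runs to 98785254 on the + strand. The E domain around it measured 2820 kb in CH12, 5620 kb in primary B cells and 5660 kb in MEF. The left edge made the difference in length, at position 96480001 in CH12, 93700001 in primary B cells and 93620001 in MEF. The edge nearest to the gene, on its right, stayed within 40 kb in the 3 maps, at 531, 551 and 511 kb from the start in CH12, primary B cells and MEF. All 51 bins of 20 kb within 500 kb of the Cdc6 start were E in each map, and this window also held 34 protein-coding starts, the most of any member.

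Cdt1, the other MCM loading factor and the target of geminin, occupies chr8:125091915-125097028 on the + strand. Its E domain measured 3580 kb in CH12, 2700 kb in primary B cells and 6680 kb in MEF. The start was 1072, 1012 and 3292 kb from the nearest edge in the same order, the largest such distance among the members in each map. In MEF 98.0% of all genes in E domains were nearer to an edge than Cdt1 was. As with Cdc6, every bin within 500 kb was E in the 3 maps.

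Gmnn, the inhibitor of CDT1, is at chr13:24843714-24853792 on the - strand. It was E in all 3 maps but, in CH12, in a domain of only 280 kb. Of all genes with an E start in CH12, 1.62% lay in shorter domains, and the Gmnn start was 53.8 kb from the left edge. In primary B cells the E domain measured 1300 kb and in MEF 820 kb, both ending at the same bin 286 kb to the right of the start. All 14 bins of the CH12 domain were E in the other 2 maps, so the CH12 domain was nested in both. Within 500 kb of the start, 54.9% of bins were E in CH12 and 7.84% were L, while 78.4% were E and none L in primary B cells and in MEF. The CH12 domain is shorter than the 300 kb span over which the study smoothed its RT signal. Gmnn therefore differs from Cdc6 and Cdt1 in its surroundings, although all 3 licensing genes share the E state.

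The 2 genes of the kinase that starts firing were both M in CH12, and the states around them differed more between CH12 and primary B cells than those around any other member. Cdc7, the catalytic subunit, is at chr5:107393341-107413451 on the + strand. In CH12 it lay in an M domain of 740 kb with an L domain of 480 kb on its left and an E domain of 1340 kb on its right. The L domain began 333 kb away and the E domain 407 kb away. In primary B cells the gene was in an E domain of 1980 kb and in MEF in an E domain of 1940 kb. These 2 domains had the same left edge, 233 kb from the gene, and right edges 40 kb apart. Set against that shared edge, the E domain of CH12 began 640 kb further to the right, beyond Cdc7. Of the 37 bins in the CH12 M domain, 32 were E in primary B cells and 32 were E in MEF, and the remaining 5 were M.

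The states within 500 kb of Cdc7 were equal in primary B cells and MEF in 100% of bins, whereas CH12 and primary B cells shared 19.6% of them. The median over all protein-coding genes for the latter comparison was 84.3%, and 2.92% of genes had a lower value than Cdc7. The E share of these bins was 9.80% in CH12 and 72.5% in each of the other 2 maps. The difference was not limited to the gene. Of the 4 nearest coding genes that start in the same CH12 domain, Hfm1 at 38.0 kb to the left, Tgfbr3 at 325 kb to the right and Brdt at 367 kb to the right had the same order of states as Cdc7, and Zfp644 at 267 kb to the left was M in the 3 maps.

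Dbf4, the subunit that activates CDC7, lies 98971 kb from Cdc7 on the same chromosome, at chr5:8396973-8422716 on the - strand. It was M in the 3 maps, in domains that differed in length and in what bordered them. In CH12 the M domain spanned 140 kb, the shortest domain around any member, with L domains of 2640 kb on its left and 180 kb on its right. Only 0.821% of genes with an M start in CH12 lay in shorter domains. In primary B cells the M domain measured 480 kb and the gene was 37.3 kb from an E domain of 800 kb on its right. In MEF it measured 1180 kb, lay between L domains of 1920 and 2100 kb, and the nearest E domain was 2643 kb away.

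A constant M call at Dbf4 thus covered unlike surroundings. Within 500 kb of the start, L bins made up 58.8% in CH12, 5.88% in primary B cells and 7.84% in MEF, and E bins made up 7.84%, 47.1% and 0% in that order. CH12 and primary B cells had 25.5% of these bins in the same state. The window had the lowest GC content of the members, 40.4%, against a median of 44.1% over all genes. When the gene was given the state of most bins within 150 kb of its start, in place of the state at the start, Dbf4 became L in CH12, the only member and map for which this choice changed the state. The number of members with the same state in CH12 and primary B cells then fell to 8.

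**Figure D2:**
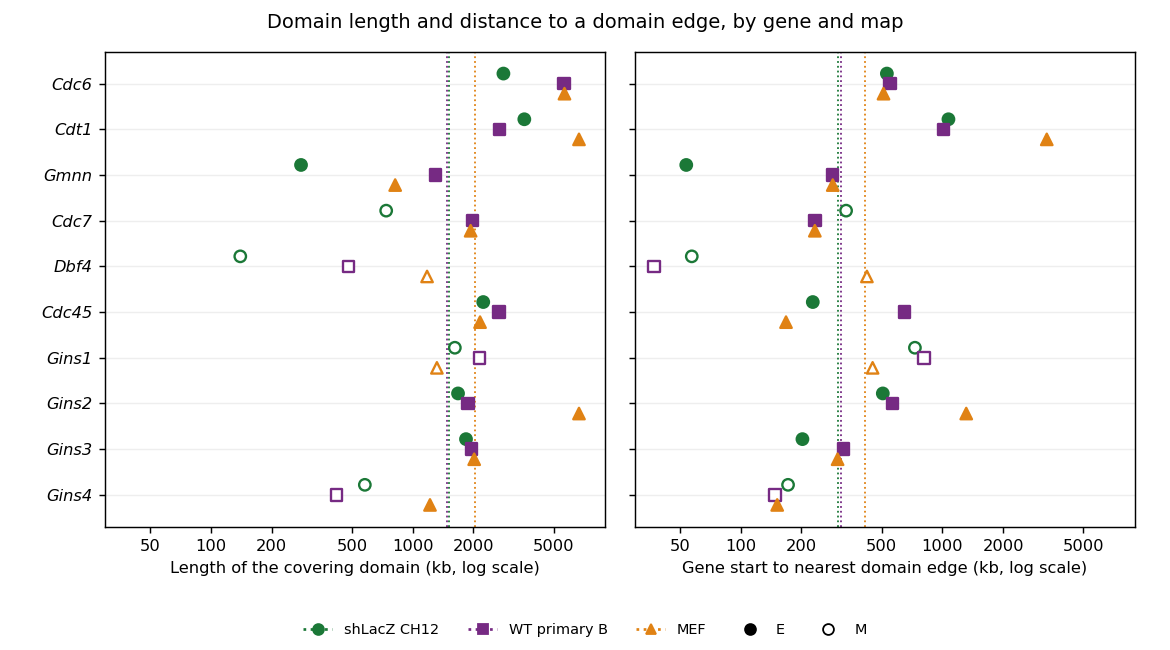
Length of the covering domain (left, kb, log scale) and distance from the gene start to the nearest domain edge (right, kb, log scale) for each gene in each map, with filled symbols for E and open symbols for M domains and dotted lines at the median over all protein-coding genes. Dbf4 at 140 kb and Gmnn at 280 kb in CH12 are the only member domains under 300 kb, and Cdt1 is farthest from an edge in each map.

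Of the 5 CMG members, Cdc45, Gins2 and Gins3 were E in the 3 maps, Gins1 was M in the 3 maps, and Gins4 was M in the B cell maps and E in MEF. Cdc45, which binds MCM and is among the limiting firing factors, is at chr16:18780540-18812080 on the - strand. It was E in domains of 2240 kb in CH12, 2680 kb in primary B cells and 2160 kb in MEF. The left edge of these domains stayed within 40 kb, while the right edge, the one near the gene, was 228, 648 and 168 kb from the start. Within 500 kb of the start, E bins were 72.5%, 100% and 66.7% of the total in CH12, primary B cells and MEF.

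The 4 GINS subunits form 1 complex but are encoded in unlike RT surroundings. Gins1 is at chr2:150731136-150757016 on the + strand and was M in the 3 maps, in domains of 1620 kb in CH12, 2140 kb in primary B cells and 1320 kb in MEF. These are long for M domains: 88.2% of genes with an M start in CH12 and 93.1% in primary B cells lay in shorter ones, although only 56.0% did in MEF. In each map an L domain lay on its left and an E domain on its right. The M share within 500 kb was 100% in CH12 and primary B cells and 94.1% in MEF. The Gins1 start was 731, 811 and 451 kb from the nearest edge, against 57.3, 37.3 and 423 kb for Dbf4, so the 2 genes differed in this in the B cell maps and little in MEF.

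Gins2, at chr8:123102533-123113204 on the - strand, was E in domains of 1680 kb in CH12, 1880 kb in primary B cells and 6680 kb in MEF, and all bins within 500 kb were E in each map. It lies 1979 kb from Cdt1. In MEF the same E domain covered the 2 genes, whereas in CH12 and in primary B cells an M domain of 400 kb separated them, at chr8:123620001-124020000 in CH12 and at chr8:123680001-124080000 in primary B cells. Their E calls in MEF therefore come from 1 domain and are not separate observations. No other members shared a domain in any map.

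Gins3, at chr8:98157459-98168959 on the + strand, had the least varying domain of the E members. It measured 1840 kb in CH12, 1960 kb in primary B cells and 2020 kb in MEF, with the start 203, 323 and 303 kb from the right edge. Beyond that edge an M domain of 280 to 340 kb led in each map to an L domain, which lay 543, 603 and 643 kb from the gene.

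Gins4, at chr8:24337082-24348140 on the - strand, was M in CH12 in a domain of 580 kb and M in primary B cells in a domain of 420 kb. In both maps an E domain lay on its left and an L domain on its right. In MEF the gene was E, in a domain of 1220 kb with M domains on both sides, and 152 kb from the right edge. The right-hand limit of E was at the left of the gene in the B cell maps and at its right in MEF, 560 kb further than in CH12 and 300 kb further than in primary B cells. Of the 29 bins of the CH12 M domain, 28 were E in MEF and 13 were E in primary B cells, so the primary B map had an intermediate position of this limit. The states within 500 kb were shared by CH12 and MEF in 11.8% of bins, by CH12 and primary B cells in 64.7%, and by primary B cells and MEF in 47.1%. Agpat6 and Nkx6-3, at 29.2 and 84.4 kb on the left, and Golga7, at 19.4 kb on the right, had the same order of states as Gins4. Ank1, 263 kb to the left, was already E in primary B cells.

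Over the 10 members, the median domain length was 1650 kb in CH12, 1970 kb in primary B cells and 1980 kb in MEF, against 1520, 1480 and 2040 kb over all protein-coding genes. The median distance to an edge was 281, 437 and 363 kb, against 304, 313 and 415 kb. The medians of the members were thus above those of all genes in some maps and below in others, and they describe a set with a wide spread, from 140 to 3580 kb in length in CH12 alone. In CH12 2 starts, those of Gmnn and Dbf4, lay within 150 kb of an edge, which is within the reach of the smoothing. In primary B cells 2 did, those of Dbf4 and Gins4, and in MEF none did. The share of all genes this near an edge was not counted. The median distance over all genes with an M start was 152 kb in CH12 and 174 kb in primary B cells, so such nearness is common for M genes. It is less common for E genes such as Gmnn. The median over all genes with an E start in CH12 was 440 kb, and 7.02% of them were nearer to an edge than Gmnn.

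Within 500 kb, the bins whose state was equal in CH12 and primary B cells had a median share of 80.4% over the members and 84.3% over all genes. It reached 100% for Cdc6, Cdt1, Gins1 and Gins2, and was 88.2% for Gins3, 72.5% for Cdc45, 68.6% for Gmnn and 64.7% for Gins4. Full agreement is common, as only 72.4% of all genes had a share below 100%. The 2 lowest values were those of the kinase genes Cdc7 and Dbf4. Between primary B cells and MEF the median was 99.0% over the members and 82.4% over all genes, whose upper quartile was 100%. Here 5 members were at 100%, Gmnn and Cdc7 among them, and the lowest values were at Gins4 and Dbf4, 47.1% and 51.0%. For Gmnn and Cdc7 the primary B map therefore matched MEF in every bin of this window and CH12 in fewer. GC content in the window had a median of 44.9% over the members, from 40.4% for Dbf4 to 52.4% for Gins2, and 44.1% over all genes. The number of coding starts had a median of 13, from 9 for Cdc7 and Dbf4 to 34 for Cdc6, and 16 over all genes.

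**Figure D3:**
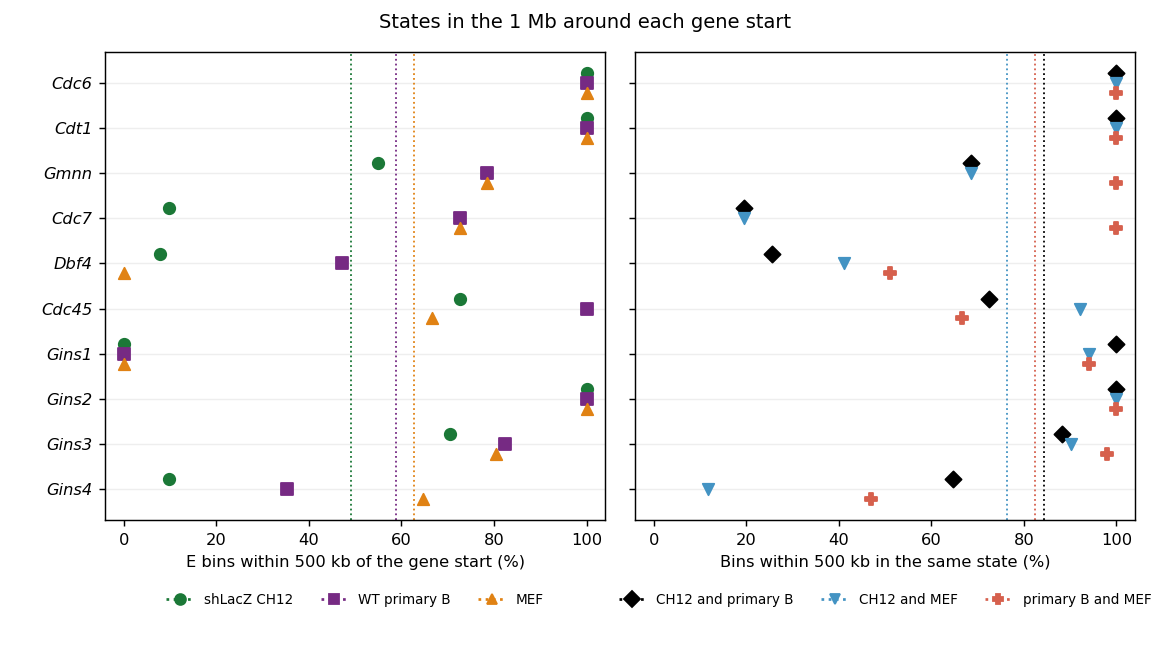
Share of E bins within 500 kb of each gene start in the 3 maps (left, %) and share of those bins whose state is equal in each pair of maps (right, %), with dotted lines at the median over all protein-coding genes. Cdc7 and Dbf4 have the lowest agreement between CH12 and primary B cells, 19.6% and 25.5%, and Gins4 has the lowest between CH12 and MEF, 11.8%.

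Other replication genes were placed in the same way from 4 lists, 45 genes in all. The CH12 map had 30 of these starts in E domains, 12 in M and 3 in L, the primary B map 33, 12 and 0, and the MEF map 31, 13 and 1. Over all genes, 50.6%, 58.0% and 58.6% of starts were in E in the same order of maps, and 22.1%, 12.9% and 11.9% in L. The state was the same in CH12 and primary B cells for 39 of 45 (78.5% of all genes), and the other 6 had the earlier state in the primary B map (18.8% of all genes). Over the genome the primary B map also had more E and fewer L bins than the CH12 map. A later state in the primary B map was found for 0 of the 45 and 0 of the 10 members, and for 2.75% of all genes, a share at which counts of 0 or 1 are near the background.

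The lists differed in their counts. Of 8 genes listed for the origin recognition complex and loading, with the MCM binding protein gene Mcmbp among them, 4 were E, 2 M and 2 L in CH12. These counts are near the shares over all genes, 50.6% in E and 22.1% in L. The L genes were Orc4 and Orc5, both subunits of that complex. Orc4 lay in an L domain of 2120 kb in CH12 and in M domains of 1260 kb in primary B cells and 1120 kb in MEF, and Orc5 was L, M and L. Of the 6 MCM helicase subunits, which the members act on, 2 were E in CH12, 3 in primary B cells and 1 in MEF, with the others M. The E shares over all genes were 50.6%, 58.0% and 58.6%. Mcm7 was the subunit whose state differed between the B cell maps. It was M in the CH12 map and E in the primary B map, where its domain measured 140 kb.

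Of 11 other firing and fork factors, 8 were E in CH12, 9 in primary B cells and 10 in MEF (all genes, 50.6%, 58.0% and 58.6%). Mtbp, the partner of the firing factor treslin, was L in CH12, 8.96 kb from the edge of its domain, and M in the other 2 maps. Topbp1, which helps CDC45 and GINS to join, had the same order as Cdc7, M in CH12 and E in the other 2. So did the MCM binding protein gene Mcmbp, which belongs to the list of 8 above and was 4.01 kb from a domain edge in CH12. The 20 genes for DNA synthesis had 16 E and 4 M starts in both B cell maps and none whose state differed between them. Over all genes, 78.5% had the same state in these 2 maps. Whether any list differs from another was not tested.

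**Figure D4:**
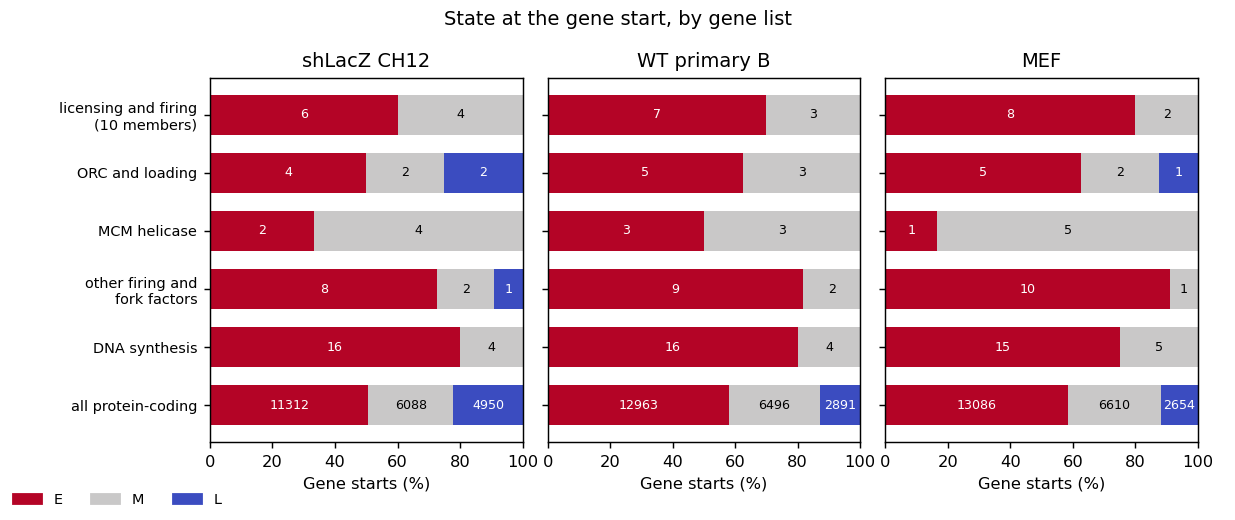
Share of gene starts (%) in E (red), M (grey) and L (blue) domains for the 10 licensing and firing genes, the 4 other replication lists and all protein-coding genes in each map, with the number of genes written in each bar. The licensing and firing genes have 6, 7 and 8 E starts in CH12, primary B cells and MEF and no L start. In CH12, 2 genes of the 8 for the origin recognition complex and loading are L, near the 22.1% of all genes.

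Promoters were read as a further description of the members, apart from their place on the maps. Many cell cycle genes are under E2F factors, and CCAAT boxes bound by NF-Y are common in their promoters. The 250 bases before each annotated start were taken from the NCBIM37 (mm9) genome and searched on both strands for TTTNNCGC (reverse complement GCGNNAAA), here called the E2F motif, and for CCAAT (reverse complement ATTGG). The motifs do not overlap in letters. The sequences below are those of Cdc7 (chr5:107393091-107393340, + strand) and Gins4 (chr8:24348141-24348390, - strand), whose state differs between maps, of Dbf4 (chr5:8422717-8422966, - strand), the partner of Cdc7, and of Gins3 (chr8:98157209-98157458, + strand), which is E throughout and holds both motifs. They run 5′ to 3′ toward the start, and capitals mark motif matches.
Cdc7: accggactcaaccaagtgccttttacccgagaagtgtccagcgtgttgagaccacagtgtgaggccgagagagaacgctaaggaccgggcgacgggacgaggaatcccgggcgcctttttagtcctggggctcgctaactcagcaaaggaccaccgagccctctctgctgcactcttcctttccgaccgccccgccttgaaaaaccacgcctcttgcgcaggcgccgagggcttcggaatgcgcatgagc
Dbf4: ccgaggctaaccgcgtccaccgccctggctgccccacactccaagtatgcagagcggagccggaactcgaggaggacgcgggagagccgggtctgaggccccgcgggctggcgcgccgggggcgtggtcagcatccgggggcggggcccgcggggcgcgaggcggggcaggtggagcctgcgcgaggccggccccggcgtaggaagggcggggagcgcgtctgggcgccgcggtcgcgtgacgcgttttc
Gins3: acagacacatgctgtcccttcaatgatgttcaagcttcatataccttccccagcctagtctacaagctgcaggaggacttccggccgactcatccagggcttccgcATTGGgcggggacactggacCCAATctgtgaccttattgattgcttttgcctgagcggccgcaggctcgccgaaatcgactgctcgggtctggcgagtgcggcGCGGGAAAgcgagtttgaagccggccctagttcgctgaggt
Gins4: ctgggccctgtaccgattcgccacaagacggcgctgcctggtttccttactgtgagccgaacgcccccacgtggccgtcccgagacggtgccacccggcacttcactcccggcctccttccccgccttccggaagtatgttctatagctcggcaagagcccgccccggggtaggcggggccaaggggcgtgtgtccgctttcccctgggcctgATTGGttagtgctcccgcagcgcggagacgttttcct

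Neither kinase gene had a match, although Dbf4 had the most GC-rich promoter of the set, 77.6% with 38 CpG, and Cdc7 had 61.2% with 22 CpG. Gins3 had GCGGGAAA at 41 to 34 bases before the start and CCAAT letters at 144 to 140 and 124 to 120 bases. Gins4 had a CCAAT match at 37 to 33 bases. Cdc6, Gmnn and Gins2 had a CCAAT match as well, at 63 to 59, 44 to 40 and 77 to 73 bases, and Gmnn had an E2F match, TTTGCCGC, at 243 to 236 bases. In all, 2 of 10 members had the E2F motif, against 5.0% of the 22350 promoters, and 5 of 10 had the CCAAT box, against 35.0%. Gmnn and Gins3 had both, 2 of 10 members against 1.89% of promoters. Matches were found in promoters of E members and in that of Gins4, and their absence in the others says only that these letters are not in this window. The median GC content was 63.0% over the members and 54.0% over all genes, and the median number of CpG was 22.5 and 8. Gins1, at 37.6% with 4 CpG, and Cdc45, at 41.6% with 11 CpG, lay below the median GC of all genes. The outermost annotated start of each gene was used. Other transcript starts spread over 22.4 kb for Dbf4, 12.7 kb for Cdc6, 10.9 kb for Cdc7, 7.42 kb for Gins1 and 3.10 kb for Gins2, and the bases before those were not searched in mm9.

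The annotated start matters for these counts. RefSeq's promoter sequences (build GRCm38.p6) held 6 of the 10 members, and in the 250 bases before those starts the E2F motif was found for Cdc6 and Gins3 and the CCAAT box for Cdc45 and Gins3. Among the 14849 genes matched there, 6.16% had the E2F motif and 39.6% the CCAAT box. Gins3 had both motifs under both annotations, while Gmnn also had both before its GENCODE start. Cdc6 had a CCAAT match only before its GENCODE start and an E2F match only before its RefSeq start. Cdc45 had a CCAAT match only before its RefSeq start. For Gmnn, Gins2 and Gins4, a lost match cannot be told here from a gene that RefSeq's sequences did not hold.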

How the data were processed

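Repli-seq reads were processed by the study's authors. Per the study's methods and the submitters' processing notes, reads were trimmed (Trim Galore 0.6.5), aligned to mm9 (BWA 0.7.17) and filtered for unique alignments (SAMtools 1.9), replicates were merged, and log2 ratios of early over late reads in 20 kb windows were loess smoothed over 300 kb. The deposited domain files hold 1 hidden Markov state number for each domain and no ratio, count or depth. In the CH12 and primary B files state 2 was taken as E, 1 as M and 0 as L, and in the MEF file 0 as E, 2 as M and 1 as L, which gene density and GC content bore out. Smoothing and the 20 kb bins limit how finely an edge is placed.

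Gene starts were taken from GENCODE M1 (NCBIM37), 22350 protein-coding genes. A start took the state of the domain covering it, and edge distance ran from the start to the nearer domain end. Surroundings were the 51 bins within 500 kb. Shares over all protein-coding genes are the background. The placement was tested on simulated data, a CH12 map with known changes, and found 263 of 263 changed genes. This checks only that states are looked up correctly, not the state calls, domain edges or annotated starts. Python 3.11.15, numpy 2.4.6, pandas 2.3.3 and matplotlib 3.10.9 were used. All 10 members are named. Of the other lists, genes are named where the state differed between CH12 and primary B cells or was L in any map, and neighbours are those in the same domain, up to 3 on each side. The members and lists were chosen with earlier results of these data known. The MEF map is public data of another study and is tied to no library here.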

Additional observations from a re-analysis of the deposited data

How the results depend on the processing

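The counts of members by state and the medians of domain length and edge distance were recomputed with the gene midpoint or gene end in place of the start, with the most upstream or most downstream transcript start, with the state of most bins within 150 kb, with domains under 100 kb merged, and with domains of 1 state joined across gaps of up to 40 kb, where each choice applied. All 59 recomputed values of these 11 results kept within 1.5 times the value reported. The most upstream transcript start is the start already used, so its values were bound to agree. Of 37 recomputed values of the 15 other results, which are background shares and motif counts, 29 moved. Background shares by state were judged more narrowly than by 1.5 times. A CH12 E share of 51.8% against 50.6% counted as moved, while a CCAAT share of 26.1% against 35.0% did not. The counts of moved values in the 2 groups of results therefore cannot be compared. The share of gene starts in E in CH12, 50.6% as reported, was 44.8% over all annotated genes, 51.8% on autosomes only and 47.7% with each 20 kb bin counted once, and the share in L was 28.4%, 21.3% and 24.0% against 22.1%. The E share in the same order was 51.7%, 59.2% and 55.2% in primary B cells and 51.8%, 61.1% and 56.1% in MEF. Of 210 recomputed member states, 209 were unchanged. The exception was Dbf4 in CH12, M at its start and L by most bins within 150 kb. This lowered the number of members constant over the 3 maps from 8 to 7. Because each member lay whole in its domain, the midpoint, gene end and transcript start choices could not change a state. No member domain was shorter than 140 kb, so merging domains under 100 kb and joining across 40 kb could not change one either. Only the choice of most bins within 150 kb could, and it changed 1 of 30 member states. In 150 bases of promoter the E2F motif was found for 1 member and 3.11% of promoters, and the CCAAT box for 5 and 26.1%. With RefSeq starts, an alternative chosen after seeing the data, the CCAAT box was found for 2 of the 6 members matched.

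No paired analysis was possible because the replicates were merged before states were called, which leaves 1 map for each condition. Leaving out a replicate was not run for the same reason, and the read depth behind a state is unknown.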
